A study of Mus musculus with 2 samples.

Results

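The 8 genes described here carry oxygen or start the synthesis of heme: myoglobin (Mb), cytoglobin (Cygb), the adult alpha globins Hba-a1 and Hba-a2, the adult beta globins Hbb-bs and Hbb-bt, and the 5-aminolevulinate synthases Alas1 and Alas2. They were chosen by symbol and are 8 of 55536 annotated genes. Their RNA was quantified from total RNA-seq of a calf muscle, the gastrocnemius, in 2 male mice of strain B6CASTF1/J (B6Cast F1) at 25 days of age, with 1 library of 300 ng RNA per animal. The labels give 1 group with no treatment or genotype contrast, so the data give levels and the spread between 2 samples. The samples are numbered as biological replicates 1 and 2 and were treated as 2 animals, though both carry the same donor entry. The labels mention no perfusion of the tissue.

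Myoglobin is the heme protein of muscle fibres that binds oxygen and eases its diffusion to mitochondria, and it is known to be richer in oxidative than in glycolytic fibres. Hemoglobin is built from alpha and beta chains in red blood cells, and its messenger RNA persists in reticulocytes, so globin transcripts in a tissue can come with its blood. Heme is made in a pathway that opens with aminolevulinate synthase, which is encoded by Alas1 in most cells and by Alas2 in erythroid cells, and that closes when ferrochelatase (Fech) inserts iron.

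The paired globin genes differ so little that their reads can be assigned only outside the shared bases, which bears on each globin level below. The coding sequences of Hba-a1 and Hba-a2 are 429 bases long and differ at 1 base, C381T, counted from the A of the start codon with the Hba-a1 base first. Those of Hbb-bs and Hbb-bt are 444 bases long and also differ at 1 base, C417T, with the Hbb-bs base first. The stretch around each difference is shown 5′ to 3′ on the coding strand, with the differing base in capitals. The sequences are of the GENCODE M21 models on GRCm38 (mm10), and each lies within a single coding exon, at chr11:32284313-32284373 on the plus strand, chr11:32297130-32297190 on the plus strand, chr7:103826665-103826722 on the minus strand and chr7:103812656-103812713 on the minus strand.
Hba-a1: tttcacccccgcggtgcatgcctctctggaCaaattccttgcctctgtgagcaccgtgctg
Hba-a2: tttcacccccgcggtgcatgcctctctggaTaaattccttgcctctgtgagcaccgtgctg
Hbb-bs: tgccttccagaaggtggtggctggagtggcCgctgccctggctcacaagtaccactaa
Hbb-bt: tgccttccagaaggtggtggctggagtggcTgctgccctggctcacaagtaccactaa
Of all 50-base windows in the Hba-a1-201 transcript, 67.5% occur unchanged in Hba-a2-201, and 86.9% of those of Hba-a2-201 occur in Hba-a1-201. For Hbb-bs-201 and Hbb-bt-201 the shares were 65.8% and 58.3%. No 50-base window was shared between the other members compared, which were the longest coding models of Mb, Cygb, Alas1 and Alas2. The split within each globin pair is therefore less certain than the sum of the pair. Mouse strains differ at these loci, and the reference used here holds 1 strain, so alleles of the other parent strain were not separated.

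Promoter sequences are shown for an alpha globin, a beta globin, the erythroid synthase and myoglobin, the last at the start of its annotated model Mb-203. They come from RefSeq on GRCm38.p6 and end before the first annotated base of both RefSeq and GENCODE. Capitals mark matches, on either strand and at any distance from the start, to 4 short motifs. The GATA motif, spelled GATAA, is the core bound by GATA factors. The Klf motif, spelled CACCC, is bound by Klf factors, among them the erythroid Klf1. The NF-Y motif, spelled CCAAT, is a common promoter element bound by NF-Y. The TATA motif, spelled TATAA, lies shortly upstream of the start site in many genes. In Alas2 the GATA match lies on the reverse strand and 2 TATA matches overlap. The regions are chr11:32296242-32296488 on the plus strand, chr7:103813997-103814173 on the minus strand, chrX:150547167-150547374 on the plus strand and chr15:77022788-77023037 on the minus strand.
Hba-a2: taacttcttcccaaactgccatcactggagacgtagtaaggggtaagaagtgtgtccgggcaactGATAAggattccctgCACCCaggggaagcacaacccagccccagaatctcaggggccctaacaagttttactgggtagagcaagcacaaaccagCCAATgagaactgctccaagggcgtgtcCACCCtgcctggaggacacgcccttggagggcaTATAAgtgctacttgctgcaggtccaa
Hbb-bt: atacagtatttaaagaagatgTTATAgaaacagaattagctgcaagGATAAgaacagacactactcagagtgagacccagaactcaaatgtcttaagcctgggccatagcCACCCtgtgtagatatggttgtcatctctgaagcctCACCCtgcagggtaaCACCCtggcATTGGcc
Alas2: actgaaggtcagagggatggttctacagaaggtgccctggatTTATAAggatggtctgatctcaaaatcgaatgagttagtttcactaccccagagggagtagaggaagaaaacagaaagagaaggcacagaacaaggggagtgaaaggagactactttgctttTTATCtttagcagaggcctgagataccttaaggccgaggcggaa
Mb: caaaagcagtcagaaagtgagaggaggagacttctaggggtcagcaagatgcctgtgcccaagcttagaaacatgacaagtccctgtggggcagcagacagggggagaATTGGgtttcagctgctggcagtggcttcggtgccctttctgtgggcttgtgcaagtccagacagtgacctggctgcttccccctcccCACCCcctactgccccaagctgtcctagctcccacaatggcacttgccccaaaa
Over windows of 300 bases around the RefSeq start, the GATA motif was found in 25.4% of 32851 promoters, the Klf motif in 57.5%, the NF-Y motif in 37.4%, the TATA motif in 24.9% and all 4 in 1.51%. All 4 adult globin windows held all 4 motifs. The Hba-a1 and Hba-a2 promoters were identical over 247 bases. The Hbb-bt window held 2 TATA and 3 NF-Y matches, of which 1 of each lies in the printed part. The Alas2 window held every motif but the NF-Y one, with its 3 Klf matches outside the printed part. None of the 3 Mb windows held the GATA or the TATA motif, and the 2 Alas1 windows held the Klf motif alone. Cygb had no entry. A match describes letters only and shows no binding.

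Libraries held 35098487 and 37428588 expected counts, of which the 8 genes took 0.104% and 0.127%. All 9 skeletal fibre markers were detected, which here means 1 TPM (a transcript's share of the library, corrected for length and scaled to a fixed total) or more in both animals. Of 9 cardiac markers, Myh6 alone was detected and 6, among them Nppa and Myl7, had 0 counts, of which Tbx20 had 32.1 and 45.1 counts and Gata4 had 0 and 2 in the second table, all 4 named after their values were seen. Slow fibre genes set the animals apart: the summed TPM of 10 slow sarcomere genes was 1501 in animal 1 and 2650 in animal 2. That of 12 fibroblast markers was 1974 and 1356, with most of the drop in 2 collagen genes. Col1a1 had 864 and 469 TPM and Col1a2 508 and 316 TPM, while Col3a1 had 228.8 and 229.3 TPM.

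Myoglobin was the most abundant of the 8 genes. Mb (ENSMUSG00000018893.15, chromosome 15, 77015487 to 77050670, minus strand) had 997 TPM in animal 1 and 1379 TPM in animal 2, or 1188 ± 271 TPM (SD, n = 2). It ranked 31st and 25th among 21979 nuclear protein-coding genes. A second deposited quantification of the same libraries gave 1558 and 2193 TPM. Animal 2 was higher in both. By mean TPM, Mb was 5.73 times the next member, Hbb-bs, in the first table and 3.92 times in the second. Cygb (ENSMUSG00000020810.5, chromosome 11, 116645595 to 116654313, minus strand), a globin found in fibroblasts and other cells, had 2.52 and 2.93 TPM, or 2.73 ± 0.29 TPM, and 3.64 and 4.41 TPM in the second table. The log2 ratio of Mb over Cygb was 8.75 ± 0.18 in TPM (SD, n = 2).

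Transcripts of adult hemoglobin chains were abundant too. Hbb-bs (ENSMUSG00000052305.6, chromosome 7, 103826534 to 103828096, minus strand) had 217 TPM in animal 1 and 197 TPM in animal 2, or 207 ± 14.3 TPM. Hba-a1 (ENSMUSG00000069919.7, chromosome 11, 32283511 to 32284465, plus strand) had 178 and 176 TPM, or 177 ± 1.05 TPM. Hba-a2 (ENSMUSG00000069917.7, chromosome 11, 32296489 to 32297298, plus strand) had 164 and 140.1 TPM, or 152 ± 17.0 TPM. All 3 were a little lower in animal 2. Hbb-bt (ENSMUSG00000073940.3, chromosome 7, 103812524 to 103813996, minus strand), the minor beta chain gene here, had 25.7 and 23.7 TPM, or 24.7 ± 1.41 TPM. The 4 genes together came to 585 and 537 TPM, below Mb in both animals.

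The second table kept the order of these genes but not their levels. It gave Hbb-bs 495 and 462 TPM, Hba-a1 455 and 436 TPM, Hba-a2 128 and 118 TPM, and Hbb-bt 75.0 and 72.4 TPM. Relative to the first table this is 2.31, 2.52, 0.81 and 2.99 times. Nuclear protein-coding genes as a whole also had more TPM in the second table, 603307 and 652321 against 388520 and 406033 in the first. In counts the sums of the 4 genes were close, at 8926 and 8656 in the first table and 8476 and 8148 in the second. The effective length, by which counts are divided, is 99 bases below the transcript length in the first table and about 345 bases below for longer transcripts in the second, as for Hbb-bt-201 with 604 and 358 bases. Globin transcripts are short, so their TPM depends on this choice more than that of long genes. The parts of length, of the general rise and of read assignment in the globin differences were not tested.

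**Figure D1:**
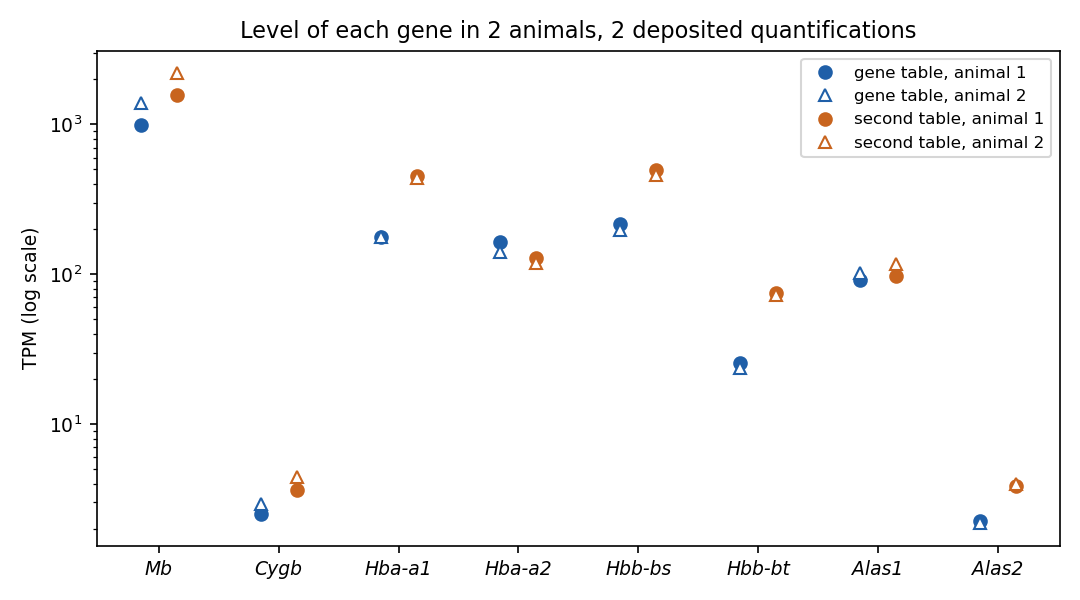
TPM of each of the 8 genes (log axis) in animal 1 (filled circles) and animal 2 (open triangles), in the gene table (blue) and the second table (orange). Mb lies highest, Cygb and Alas2 lowest, and for every gene but Alas1 the 2 tables differ more than the 2 animals.

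Within a library, alpha chains exceeded beta chains by a small factor in the first table. The alpha sum was 342 and 316 TPM and the beta sum 243 and 221 TPM, a log2 ratio of 0.51 ± 0.019 (SD, n = 2), or 1.42-fold. In the second table the log2 ratio was 0.042, or 1.03-fold, with sums of 583 and 554 TPM for alpha and 570 and 535 TPM for beta. In counts, alpha sums of 5169 and 5045 stood beside beta sums of 3757 and 3611. The excess of alpha over beta transcripts per length was thus far smaller in the second quantification.

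The split within each pair differed as well. Hba-a1 over Hba-a2 had a log2 ratio of 0.22 ± 0.15 in the first table and 1.85 in the second, where Hba-a1 took 4005 and 3915 counts and Hba-a2 took 687 and 643. In the first table Hba-a1 took 3014 and 3098 counts and Hba-a2 took 2155 and 1947. The alpha sum in counts moved less than this, to 4692 and 4558 in the second table. Hbb-bs over Hbb-bt was 3.07 ± 0.017 in the first table and 2.70 in the second, so Hbb-bs exceeded Hbb-bt in both animals and both tables. The annotated Hba-a1-201 model has 196 bases before the start codon and Hba-a2-201 has 35, and the GENCODE start of Hba-a1 lies 161 bases before the RefSeq start. The part of this difference in the split was not tested.

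Alas1, the first enzyme of heme synthesis in most tissues (ENSMUSG00000032786.16, chromosome 9, 106233455 to 106248654, minus strand), had 91.3 TPM in animal 1 and 102 TPM in animal 2, or 96.4 ± 7.26 TPM. The second table gave 97.0 and 117 TPM. Alas2, the erythroid enzyme (ENSMUSG00000025270.13, chromosome X, 150547375 to 150570638, plus strand), had 2.27 and 2.18 TPM, or 2.23 ± 0.064 TPM, and 3.86 and 3.98 TPM in the second table. In counts Alas2 had 102 and 110 against 2630 and 3204 for Alas1. The log2 ratio of Alas1 over Alas2 was 5.44 ± 0.15 in TPM (SD, n = 2), 4.76 in the second table, and 4.01 where each gene's counts were divided by its longest coding transcript. The direction was the same in all 3, and the size was not.

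In descending mean TPM the order was Mb, Hbb-bs, Hba-a1, Hba-a2, Alas1, Hbb-bt, Cygb and Alas2 in both tables. No neighbouring pair overlapped between animals in the first table. In the second, Cygb and Alas2 overlapped. Between Hba-a2 and Alas1 the step was 1.58-fold in the first table and 1.15-fold in the second.

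The annotated transcripts that carry each gene are less certain than the genes. In the first table, 35.4% ± 2.45 (SD, n = 2) of Mb TPM lay in Mb-202, 35.1% ± 7.30 in Mb-206, 25.5% ± 3.20 in Mb-203 and 3.93% ± 1.65 in Mb-201. In the second, Mb-203 held 56.4%, Mb-205, which was at 0 in the first, 25.7%, Mb-202 17.6% and Mb-206 0.30%. All are annotated as protein-coding, and each starts at another base. Both tables placed a sizeable share on the 2 models whose first exon lies 27782 bases or more upstream of that of Mb-203: 37.2% and 33.7% of TPM in the first table, and 41.5% and 45.1% in the second.

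Most of the TPM of Alas1 came from a short model. Alas1-211, a 460-base coding fragment, held 54.3% ± 0.98 of TPM with 523 of 2630 counts in animal 1, since few bases divide its counts. Alas1-206, a 1905-base model annotated as processed transcript, held 41.5% of TPM and 75.1% of counts in animal 1. In the second table Alas1-206 held 44.4%, Alas1-211 30.9%, Alas1-212 13.1% and Alas1-207, the longest coding model, 7.92%. With all counts on that longest model, Alas1 would stand at 29.7 TPM. The level of Alas1 relative to other genes therefore rests on how reads were shared among its 13 annotated transcripts.

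The globins were simpler. Hba-a1-201 held 91.0% ± 4.36 of Hba-a1 TPM, and the retained-intron model Hba-a1-202 held 5.91% in animal 1 and 12.1% in animal 2. In the second table Hba-a1-202 was at 0. Hbb-bs-201 held 99.4% in the first table and 81.2% in the second, where Hbb-bs-203 held 18.8%. Hba-a2, Hbb-bt and Cygb each had all their TPM in 1 model in both tables. Alas2-201 held 57.1% ± 8.63 of Alas2 TPM, on few counts, and 48.9% in the second table.

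**Figure D2:**
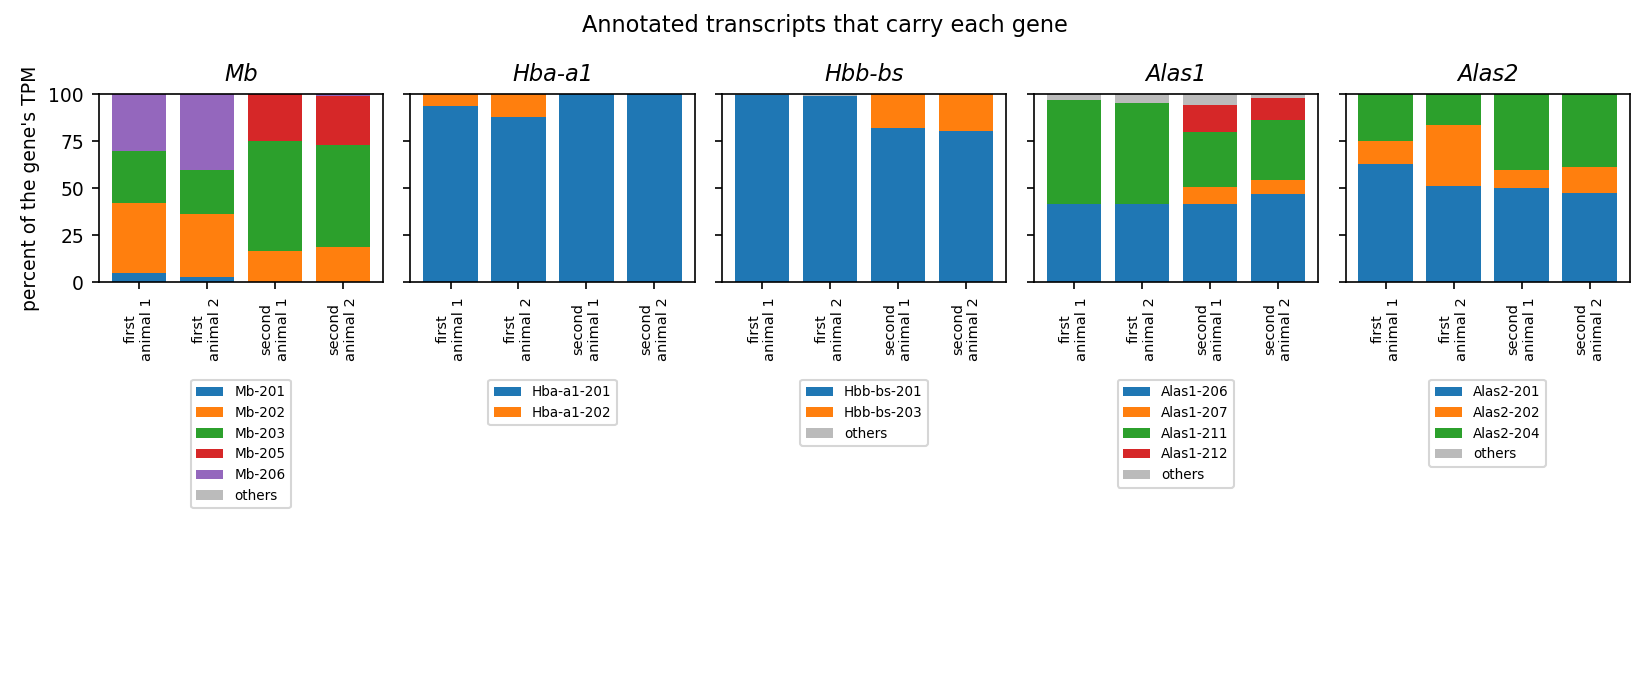
Percent of each gene's TPM in each annotated transcript, per animal, in the first tables (left pair of bars) and the second table (right pair). Models under 5% in every bar are pooled as others. For Mb, Alas1 and Hbb-bs the tables differ more than the animals do.

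The animals were compared as libraries by a two-sided exact binomial test on counts, with Benjamini-Hochberg adjustment over 14754 genes. The test covers counting error only and compares 2 libraries, as the smallest exact p that 2 animals allow is 0.5. A gene is called at an adjusted p under 0.05. Calls were made for 15.1% of all tested genes: 8.1% had the higher value in animal 2, 6.99% had it in animal 1, and 1.78% were also over 2-fold. Of the 8 genes 4 were called, Mb with the higher value in animal 2 and Hba-a1, Hba-a2 and Hbb-bs with it in animal 1, and 0 exceeded 2-fold. The same 4 were called, in the same directions, in the second table, where the shares over all tested genes were 14%, 7.16%, 6.8% and 1.48%. The 8 genes had a median log2 ratio of -0.11, beside 0.015 for all tested genes. The 4 called genes had 1947 counts or more in each animal.

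Mb had 24665 counts in animal 1 and 35299 in animal 2, a log2 ratio of 0.33 (95% interval 0.31 to 0.36, counting error only) and an adjusted p of 1.8e-168 by the exact test. The second table gave 0.33. As large a ratio either way was found in 22.5% of tested genes. Scaled to library totals the log2 ratio of Mb was 0.42, and in TPM it was 0.47. The share of the short Mb-206 was 29.98% in animal 1 and 40.3% in animal 2. The part of this share in the TPM ratio was not tested.

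Slow fibre genes were higher in the same animal. All 10 slow sarcomere genes passed the test with more RNA in animal 2, and their log2 ratios had a median of 0.75. Over all tested genes, 8.1% were called higher in animal 2 and 6.99% in animal 1. Passing alone says little, as 8 of 9 skeletal fibre markers also passed, 4 in each direction, with a median log2 ratio of 0.003. The slow genes are listed by their TPM below. Among the slow genes were Myl2, the slow regulatory light chain (256 and 516 TPM), and Myh7, the slow heavy chain (230 and 395 TPM). Tnni1, slow troponin I (64.5 and 139 TPM), alone passed 2-fold in scaled counts. Of 11 fast sarcomere genes, 9 passed with the higher scaled count in animal 1 and 1 with it in animal 2. Their median log2 ratio was -0.11. TPM did not always share this direction. Among the 9, Mylpf (18493 and 19205 TPM) and Myl1 (10856 and 11512 TPM) had more TPM in animal 2. Tnnt3 (13603 and 12244 TPM) and Myh4 (10347 and 9464 TPM) had more in animal 1. The part of slow fibre content in the Mb ratio was not tested. In bulk tissue more cells of a type and more RNA per cell cannot be told apart.

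The globins ran the other way. Hba-a2 had a log2 ratio of -0.33 (95% interval -0.42 to -0.24, adjusted p = 8.3e-12, exact test), Hbb-bs -0.25 (-0.32 to -0.17, adjusted p = 2.9e-10) and Hba-a1 -0.15 (-0.22 to -0.07, adjusted p = 0.0011). Hbb-bt had -0.22 (-0.41 to -0.03) and was not called (adjusted p = 0.12, exact test). In the second table the values were -0.27, -0.26, -0.20 and -0.19, so all 4 lay below 0 in both. As large a ratio was found in 22.5% of tested genes for Hba-a2 and in 50.1% for Hba-a1. Scaled to library totals, Hba-a1 fell to -0.05 and was not called, and in TPM its log2 ratio was -0.01.

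Cygb, with 162 and 200 counts, had a log2 ratio of 0.12 (95% interval -0.19 to 0.43) and was not called (adjusted p = 0.73, exact test). Alas1 had 0.10 (0.02 to 0.17, adjusted p = 0.055, exact test), just above the threshold. It passed with library totals (0.19), with spike-in totals (0.11) and with a minimum of 100 counts (0.10). Alas2 had -0.08 (-0.48 to 0.33, adjusted p = 0.90, exact test), with an interval that spans 0.

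**Figure D3:**
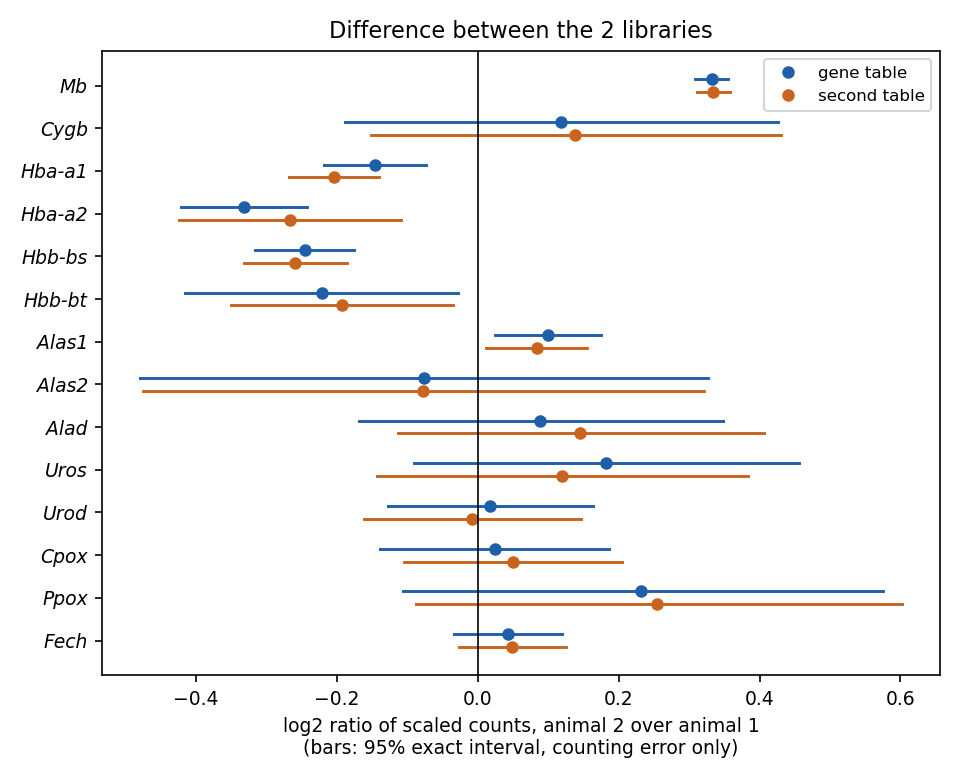
Log2 ratio of scaled counts, animal 2 over animal 1, for the 8 genes and 6 other heme synthesis enzymes, in the gene table (blue) and the second table (orange), with 95% exact intervals that cover counting error. Mb lies right of 0, the 4 globins lie left of 0, and the intervals of the 6 enzymes from Alad to Fech span 0.

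All 9 genes of heme synthesis were detected, and 0 of 9 were called between the animals by the exact test (1, Alas1, at an unadjusted p under 0.05, and 0 in the second table). Over all tested genes, 15.1% were called. The 9 genes had a median log2 ratio of 0.089, with 8 of 9 above 0. By level the pathway was uneven. Alas1 was highest, followed by Fech, the iron-inserting enzyme, with 51.1 and 57.0 TPM, or 54.0 ± 4.15 TPM (SD, n = 2). Urod, which trims uroporphyrinogen, had 22.0 and 23.1 TPM, or 22.5 ± 0.79 TPM.

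Other steps between the first and the last stood lower than Urod. Alad, which joins 2 aminolevulinates, had 7.12 and 8.17 TPM, and Cpox, coproporphyrinogen oxidase, had 6.83 and 8.46 TPM. Uros, which closes the ring, had 4.43 and 5.59 TPM. Ppox, protoporphyrinogen oxidase, had 2.87 and 3.66 TPM. Alas2 was the lowest of the 9. In the second table Fech stood at 78.7 and 96.3 TPM and Ppox at 4.14 and 5.34 TPM.

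Embryonic and other globins were not detected. Of 10 such genes, 7 had 0 counts in both animals: the embryonic chains Hba-x, Hbb-y, Hbb-bh1 and their neighbours Hbb-bh0, Hbb-bh2 and Hbb-bh3, and Hbq1a. With 0 counts, up to 3 may have been missed, which is 0.0855 CPM in animal 1 and 0.0802 CPM in animal 2 (counts scaled to the library total). Neuroglobin (Ngb) had 1 and 4 counts, androglobin (Adgb) 4 and 0, and Hbq1b 1 and 0.

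Erythroid marker genes other than globins fell into a few abundant genes and many at or near 0. Of 27 matched markers, 8 were detected, and most of their TPM came from 2 genes. Ank1, the ankyrin of the red cell skeleton, had 239 and 253 TPM, and Sptb, beta spectrin, had 48.8 TPM in each animal. Both are also expressed in muscle. Bpgm (28.5 and 30.2 TPM), which makes 2,3-bisphosphoglycerate, Tmcc2 (9.90 and 9.83), Gypc (6.20 and 7.07), Car2 (3.37 and 5.17), Alas2 and Tspan33 (1.25 and 1.10) were the others.

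Many erythroid markers were at or near 0, but not all, as Alas2 had 102 and 110 counts. Slc4a1, the band 3 anion exchanger, had 4 counts in each animal, Hemgn 1 and 1, and the erythroid factors Klf1 1 and 1 and Gata1 1 and 0. Epb42, Rhag, Rhd, Kel and Ermap had 0 in both, of which Epb42, Rhag and Ermap had 1 to 9.09 counts in the second table. Tal1 had 22 and 22 counts, Isg20 9 and 6, Epor 6 and 4, Car1 2 and 3, Nfe2 1 and 0, and Trim10 0 and 1. Tent5c was near 1 TPM (0.87 and 1.28), with 139 and 174 counts.

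Summed TPM of the erythroid list was 342 and 359. Of its 12 markers tested, 2 were called, beside 15.1% of all tested genes. These were Sptb and Bpgm, higher in animal 1 in scaled counts (log2 ratio -0.09 and -0.15), and 0 were called higher in animal 2. In TPM, Sptb had 48.78 and 48.75 and Bpgm 28.46 and 30.22, so Bpgm had more TPM in animal 2. Of 10 platelet markers Pf4 alone was detected (4.42 and 4.32 TPM), and of 13 leukocyte markers Laptm5 alone (1.17 and 1.20 TPM). Of 10 macrophage markers 7 were detected, led by Lyz2 (12.9 and 14.2 TPM), and all 9 endothelial and all 11 mural and smooth muscle markers were. Of the mural list 7 were called higher in animal 2, of the endothelial list 2 higher in animal 2 and 1 in animal 1, and of the fibroblast list 8 of 12 higher in animal 1. The part of blood and of other cell types in the globin levels was not tested.

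**Figure D4:**
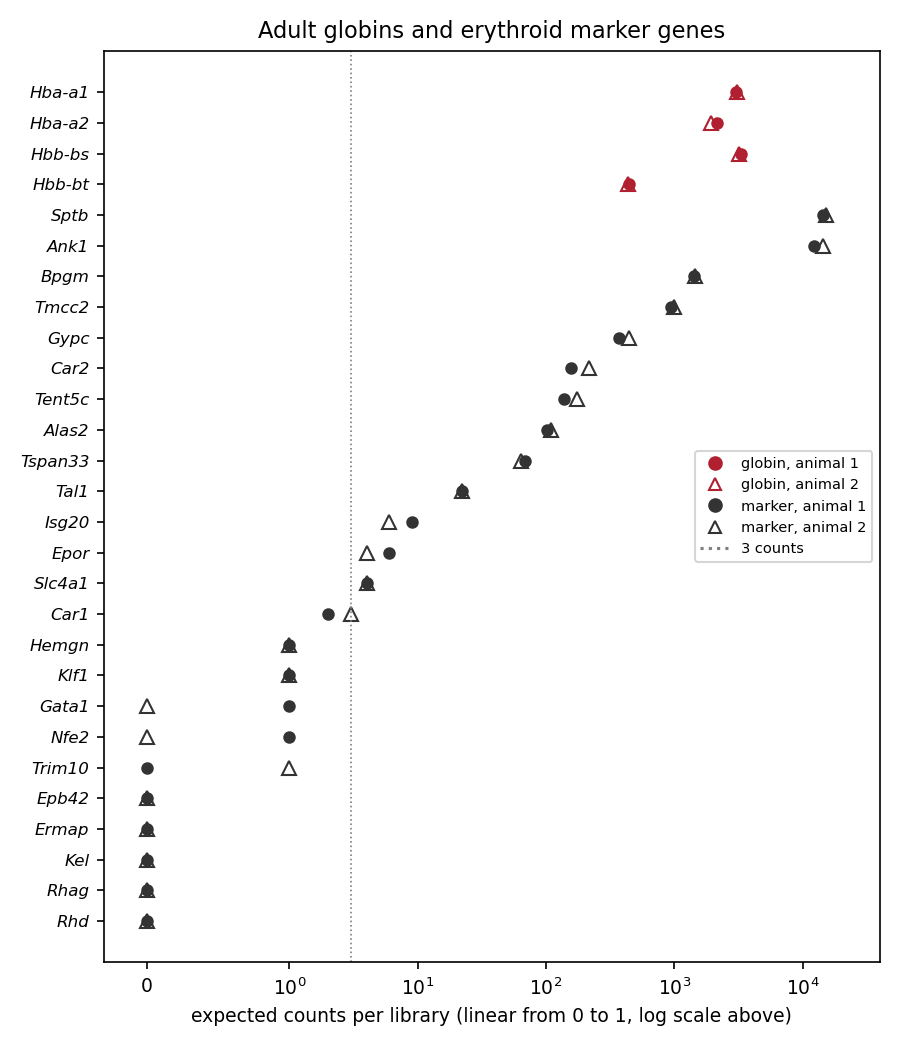
Expected counts (linear from 0 to 1, log scale above) of the 4 adult globins (red) and erythroid markers (black) in animal 1 (filled circles) and animal 2 (open triangles). The globins lie between 436 and 3310 counts. Sptb and Ank1 lie above them and Bpgm and Tmcc2 within their range, while Slc4a1, Hemgn, Klf1 and Gata1 lie at 4 counts or fewer.

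Heme breakdown genes were low and 0 of 4 were called by the exact test (0 at an unadjusted p under 0.05, and 0 in the second table). Hmox2, the constitutive heme oxygenase, had 10.8 and 12.3 TPM, Blvra and Blvrb, biliverdin reductases, had 4.73 and 4.04 TPM and 4.13 and 4.31 TPM, and Hmox1, the inducible heme oxygenase, had 1.65 and 1.58 TPM. For comparison, 15.1% of all tested genes were called, 8.1% with the higher value in animal 2. Among 18 genes of heme transport and supply, 15 were detected, 17 tested and 3 called, all higher in animal 2. These were Gapdh, a glycolytic enzyme that also carries heme (3524 and 4417 TPM in the first table and 11787 and 13509 TPM in the second, log2 ratio 0.18), Tmem14c, which moves porphyrinogen into mitochondria (24.1 and 32.4 TPM, 0.32), and the heme exporter gene Flvcr1 (5.12 and 8.71 TPM, 0.85), named after its values were seen. Lonp1 and Clpx, mitochondrial proteases that act on aminolevulinate synthase, had 24.4 and 25.2 TPM and 22.9 and 23.4 TPM.

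Of 20 iron genes, 19 were detected, and Hamp, which encodes hepcidin of the liver, had 0 counts. Fth1, the ferritin heavy chain that stores iron, had 801 and 765 TPM and a log2 ratio of -0.17, the 1 gene of the list called higher in animal 1. Over all tested genes 6.99% were called higher in animal 1 and 8.1% in animal 2. Of the 19 iron genes tested, 4 were called higher in animal 2. Among them Tfrc, the transferrin receptor, had 59.9 and 75.2 TPM (0.21), Hfe2, or hemojuvelin, had 202.9 and 243 TPM (0.16), and the iron chaperone Pcbp2 had 144 and 160.3 TPM (0.10). The fourth was Slc11a2, an iron importer, with a log2 ratio of 0.21, named after its values were seen.

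Genes of other proteins that hold or attach heme ranged widely, with a median of 14.3 TPM in animal 1 and 16.4 TPM in animal 2, beside 7.12 and 8.17 TPM for the synthesis enzymes. Of 17 genes, 16 were detected, 7 were called higher in animal 2 and 1 in animal 1. Among all tested genes these shares were 8.1% and 6.99%. The mitochondrial genes mt-Co1, of cytochrome oxidase (13550 and 15070 TPM), and mt-Cytb, cytochrome b (8939 and 8081 TPM), led. Of the nuclear genes, Sdhc had 276 and 307 TPM and Cyc1, cytochrome c1, had 240.1 and 233 TPM in the first table. In the second, Cycs, cytochrome c, named after its values were seen, led the nuclear genes with 526 and 585 TPM, against 36.7 and 43.1 TPM in the first, and Cyc1 had 479 and 547 TPM and Sdhc 206 and 235 TPM. mt-Cytb was the 1 gene called higher in animal 1, with a log2 ratio of -0.25 in scaled counts. In the second table its TPM was 11970.5 in animal 1 and 12073.9 in animal 2. Of the 17 genes tested, 13 had a log2 ratio above 0.

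Regulators of heme and globin genes divided between the animals. Of 17, 15 were detected, 4 were called higher in animal 2 and 3 in animal 1. The shares among all tested genes were 8.1% and 6.99%. Mef2c, a muscle transcription factor, had 129 and 135 TPM (log2 ratio 0.11), and Nr1d1, a clock repressor that binds heme, had 33.2 and 46.7 TPM (0.41). Ppargc1a, a coactivator of mitochondrial and Alas1 genes, had 42.5 and 37.6 TPM and was higher in animal 1 (-0.19). Mef2d had 58.7 and 64.1 TPM (0.03) and was not called. The erythroid factors Gata1 and Klf1 were the 2 not detected.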

How the data were processed

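Total RNA-seq libraries of 2 mice, 1 each, were analysed as 1 group. The authors deposited expected counts and TPM per gene and per transcript (first tables, with RSEM's column names, per the file headers). They also deposited estimated counts and TPM per transcript in a second table with kallisto's column names, per the file headers. The first tables further hold the authors' posterior mean and interval bounds of TPM and the percent of a gene's TPM in each transcript. The build, mm10, and the annotation, GENCODE M21, come from descriptions deposited beside the tables. Software versions and the strand setting were among the details not given in the sources used here.

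Second-table values were summed per gene. Expected counts were rounded to whole numbers, scaled by TMM (edgeR 4.0.16, R 4.3.3) and tested per gene, at a summed count of 20 or more, by a two-sided exact conditional binomial test with Benjamini-Hochberg adjustment (prior count 0.5 in ratios, scipy 1.17.1). Totals were 35098487 and 37428588 counts. The sources name no molecular identifiers, so an interval or floor covers counting error only and not the copying of molecules. Tested on simulated libraries of 14747 genes, the test found all 100 genes set to a 2-fold change and all 100 set to a 3-fold change, and it also called 3 of 14547 genes left as they were, with sampling noise alone.

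The members, the 19 gene lists and the tests were chosen with earlier results of these data known. Named are all 8 genes, all members of the heme synthesis, other globin and erythroid lists apart from a few that are not reported here, and of each other list up to 4 detected members with the highest mean TPM and those called over 2-fold. One erythroid marker, Ahsp, was not analysed here. Alternatives were DESeq2 1.42.0 size factors, library totals, spike-in totals, other count and detection thresholds, a pseudocount of 1, the second table, posterior means, shares of nuclear coding TPM and, chosen after seeing the data, the longest coding transcript. Promoter and coding sequences were read from RefSeq and GENCODE tables of GRCm38.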

Additional observations from a re-analysis of the deposited data

How the results depend on the processing

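Scaling to library totals called 3541 genes in place of 2226, of which 82.9% were higher in animal 2, against 53.7% with TMM. It moved the median log2 ratio of all tested genes by 0.093, left Hba-a1 uncalled at -0.05 and turned the log2 ratio of Alas2 to 0.017. With a minimum of 100 counts, 118 genes were called over 2-fold, in place of 262. Over all scalings, filters and tables, the log2 ratio of Mb ran from 0.33 to 0.42, that of Hba-a2 from -0.33 to -0.24 and that of Hbb-bs from -0.26 to -0.15, and these 3 kept their calls.

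Ratios within a library depended on the table: in the second, alpha over beta was 0.042 (log2), Hba-a1 over Hba-a2 1.85, Hbb-bs over Hbb-bt 2.70 and Alas1 over Alas2 4.76. On the longest coding transcript, alpha over beta was 0.48, Alas1 over Alas2 4.01 and Mb over Cygb 8.51. A pseudocount of 1 gave 3.02 for Hbb-bs over Hbb-bt, 4.91 for Alas1 over Alas2 and 8.30 for Mb over Cygb. In the second table Mb-202 held 17.6% of Mb, Alas1-211 30.9% of Alas1, Hba-a1-201 100% of Hba-a1 and Hbb-bs-201 81.2% of Hbb-bs. At 5 TPM, 5 erythroid markers were detected. The cause of these differences was not tested. No paired analysis was possible because the series has 1 group. At this depth 3 counts are the floor, so the near-absent erythroid factors cannot be ordered.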
